A study of Mus musculus with 84 samples.

Results

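Markers of liver macrophages and other leukocytes were followed in the livers of mice fed the organophosphate pesticides (OPPs) fenthion (FT), methidathion (MT) or parathion (PT). The 35 genes listed were markers of resident macrophages (12), of myeloid cells and leukocytes in general (10), of antigen presentation on MHC class II (4) and of infiltrating cells (9). All 35 were found in the count table by their Ensembl gene identifier. A gene was kept where its median count over all mice was above 8, which left 28 of the 35 genes and 28 of the 10415 genes that passed this limit out of 17695. The 7 genes with lower medians were Marco (median count 2), Timd4 (2), Fcer1g (1), H2-Eb1 (1), Septin1 (6), S100a9 (7.5) and Cd3e (5), and they were left out of the comparisons of groups. S100a9 and Cd3e enter only the correlations between mice. The kept genes comprised 10 resident macrophage, 9 myeloid and pan-leukocyte, 3 antigen presentation and 6 infiltrating cell genes.

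The 84 mice were B6C3F1 males aged 8 weeks, 7 in each of 12 groups, and all received the AIN-93G diet for 7 days. The control group received the diet alone (0 ppm), and the dosed groups received FT at 2.5, 5, 10 or 20 ppm, MT at 10, 25, 50 or 100 ppm, or PT at 20, 40 or 80 ppm. RNA of whole liver was measured with TempO-Seq, an assay that joins pairs of neighbouring probes bound to a transcript and counts the joined products by sequencing. A count therefore depends on the probe as well as on the transcript, so that levels are given per gene and are not compared between genes. Of the 7 mice in a group, 2 belonged to experimental block 1, 3 to block 3 and 2 to block 4. RNA came from either of 2 isolators, EA (Expression Analysis Genomic Services) or the U.S. EPA. EPA isolated 7 of the RNAs, those of 2 control mice, of 2 mice each in the highest FT and the highest MT group and of 1 mouse in the lowest MT group. EA isolated the others.

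Kupffer cells are the macrophages that live in the liver sinusoids. They clear bacteria, debris and aged red cells from portal blood, and in mice they are recognised by the lectin Clec4f, the complement receptor Vsig4 and the secreted protein Cd5l. MHC class II molecules display peptides to CD4 T cells and are made by dendritic cells and B cells as well as by macrophages, with Cd74, the invariant chain, as their chaperone. Because RNA came from whole liver, fewer cells of a type and less RNA per cell cannot be told apart.

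Total counts per mouse lay between 6950381 and 15300589, and 3 counts, taken as the smallest number measured, corresponded to 0.196 to 0.432 CPM (counts scaled to the same total in every mouse). One mouse stood apart, and it was singled out on the levels of these same 28 genes. Replicate 1 at PT 80 ppm (block 1, EA) had the lowest level of all 84 mice for 19 of the 28 genes and was among the lowest 5 mice for 21. Ranks of this mouse over all genes were not taken, so these counts are not shown to be particular to the markers. The summed level of the 28 genes was 199 CPM in this mouse, against 400 to 735 CPM in the other mice at PT 80 ppm and 542 to 798 CPM in the control mice. Its sum over 3 MHC class II genes was 13.2 CPM, against 117 to 186 CPM in the control mice. The 13 sinusoidal endothelial genes measured beside them summed to 481 CPM in this mouse, within the control range of 450 to 575 CPM. The 10 hepatocyte genes summed to 71418 CPM, above the highest control mouse at 56108 CPM, and the 4 red cell genes to 15.4 CPM, below the lowest control mouse at 36.1 CPM. In the other mice at PT 80 ppm these sums were 44835 to 68709 CPM and 25.7 to 56.1 CPM. Values outside the control range in these 2 lists were thus not particular to replicate 1. The other block 1 mouse at PT 80 ppm, replicate 2, was among the lowest 5 mice for 11 genes. The counts of calls and the fold changes of the markers at PT 80 ppm are therefore given with and without replicate 1, and the part that tissue sampling, RNA quality or health of this mouse had in its levels was not tested.

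At PT 80 ppm 9 of the 28 genes fell against the 7 control mice and 0 rose (edgeR quasi-likelihood test, Benjamini-Hochberg adjusted p under 0.05). Over all genes tested 18.6% were called, with 8.89% lower, 9.75% higher and 3.30% changed by at least 2-fold. The 9 were Clec4f, Cd5l, Csf1r and Cd68 of the resident macrophage genes, Ctss, Tyrobp and Ptprc of the myeloid and pan-leukocyte genes, and Cd52 and S100a4 of the infiltrating cell genes, and 0 of the 9 fell by as much as 2-fold. The log2 fold change was negative for 26 of the 28 genes with a median of -0.52, while the median of all genes was 0.01. The medians were -0.63 for the resident macrophage genes, -0.44 for the myeloid and pan-leukocyte genes, -0.17 for antigen presentation and -0.70 for the infiltrating cell genes. Without replicate 1 only Cd5l was called, that is 1 of 28 genes beside 12.3% of all genes (5.84% lower), while 23 of 28 log2 fold changes were still negative with a median of -0.40. Leaving out control replicate 5 left 4 calls (17.4% of all genes) and leaving out PT 80 ppm replicate 2 left 5 (15.7%). A model of the control and PT mice alone gave 0 calls by edgeR beside 9.57% of all genes. At an unadjusted p under 0.05 it gave 10 of 28 genes, and the share of all genes at that limit is not given here. DESeq2 and limma on all mice called 13 and 7 (19.4% and 22.5% of all genes). On the values that the authors had adjusted for block and isolator, 12 genes were called beside 49.5% of all genes, 10 lower and S100a6 and Cd79b higher. Of the 9 genes, Clec4f, Cd5l, Csf1r and Tyrobp were lower and called on these values. Cd52 (0.45), Cd68 (0.15), Ctss (0.0133), Ptprc (0.0893) and S100a4 (0.57) had log2 differences above 0 and were not called.

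**Figure D1:**
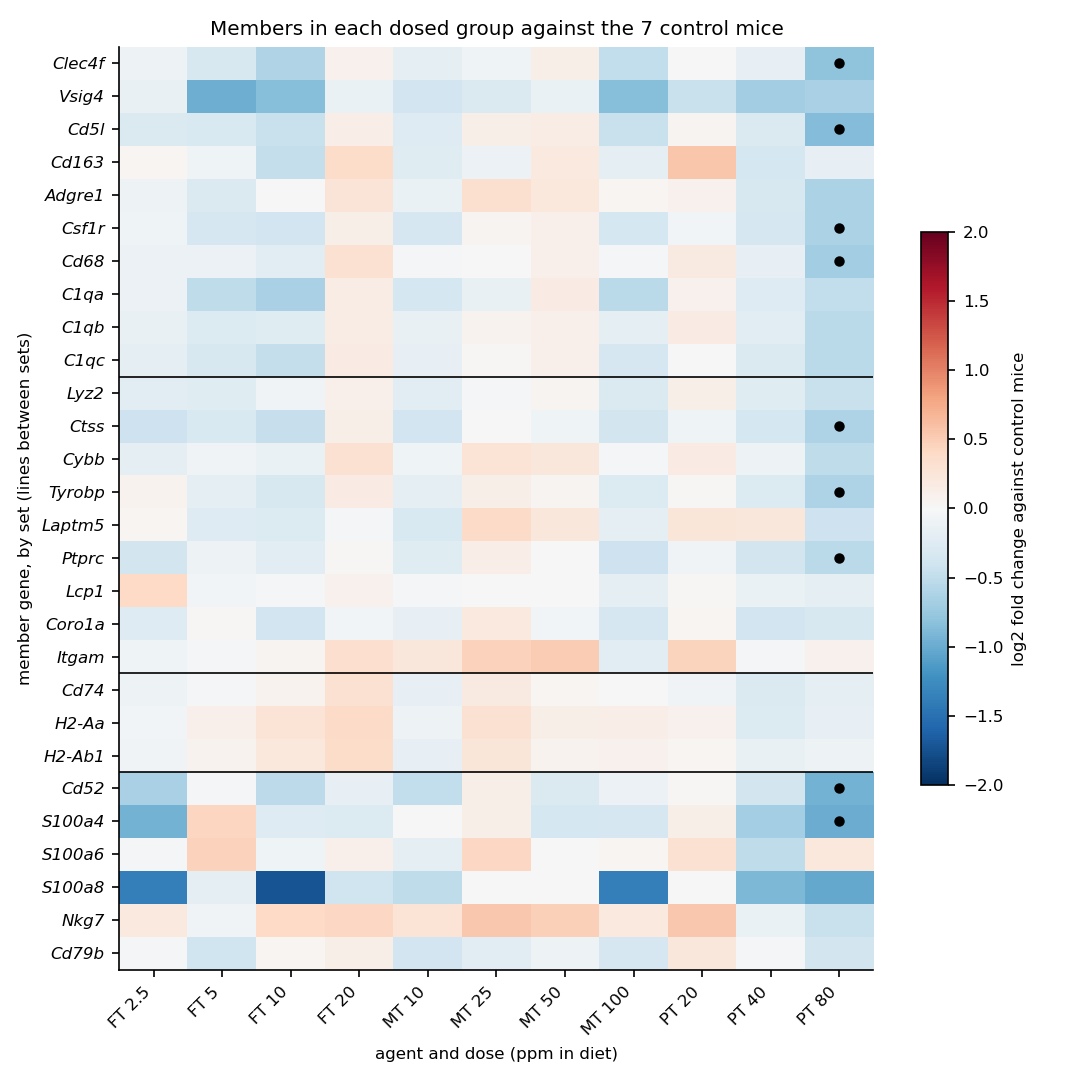
Log2 fold change (colour) of each of the 28 marker genes (rows, in their 4 sets) in each dosed group (columns, dose in ppm) against the 7 control mice, from 1 edgeR model with block and isolator; dots mark an adjusted p under 0.05. The 9 dots are all at PT 80 ppm and all on negative values, and no dot stands in the FT or MT columns.

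The stretch of 250 bases before the start site is shown for 4 of the genes that fell at PT 80 ppm, from RefSeq promoters of GRCm38.p6 and in the direction of the gene. They were searched for GAGGAA on both strands, the core of the site of PU.1, a transcription factor of myeloid cells, and capitals mark a match (TTCCTC where it lies on the other strand). Cd5l (chr3:87357631-87357880, plus strand) had 1 match on the other strand 66 bases before the start. Cd68 (chr11:69666171-69666420, minus strand) had 1 match 225 bases before it and Ctss (chr3:95526536-95526785, plus strand) 1 match 164 bases before it, both on the strand of the gene. Clec4f (chr6:83656117-83656366, minus strand) had none in this window.
Cd5l: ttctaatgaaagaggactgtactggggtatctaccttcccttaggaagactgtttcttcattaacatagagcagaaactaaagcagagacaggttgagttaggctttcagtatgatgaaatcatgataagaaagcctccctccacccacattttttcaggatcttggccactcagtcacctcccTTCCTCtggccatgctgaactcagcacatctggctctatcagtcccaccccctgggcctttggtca
Cd68: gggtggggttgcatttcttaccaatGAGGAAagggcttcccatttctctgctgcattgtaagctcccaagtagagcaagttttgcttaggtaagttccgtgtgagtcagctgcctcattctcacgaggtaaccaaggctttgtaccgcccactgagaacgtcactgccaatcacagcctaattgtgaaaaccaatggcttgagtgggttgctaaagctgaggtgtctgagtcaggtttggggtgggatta
Ctss: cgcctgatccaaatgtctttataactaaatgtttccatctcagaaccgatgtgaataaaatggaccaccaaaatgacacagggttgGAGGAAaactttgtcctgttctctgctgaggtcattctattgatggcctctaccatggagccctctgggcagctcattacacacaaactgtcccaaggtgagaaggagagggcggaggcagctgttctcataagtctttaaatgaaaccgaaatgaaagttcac
Clec4f: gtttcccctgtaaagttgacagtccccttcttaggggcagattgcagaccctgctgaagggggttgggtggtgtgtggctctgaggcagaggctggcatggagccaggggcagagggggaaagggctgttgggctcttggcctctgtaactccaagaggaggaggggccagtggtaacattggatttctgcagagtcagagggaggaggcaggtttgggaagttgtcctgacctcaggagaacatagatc
These letters occurred in 23.3% of the 32851 RefSeq promoter windows of this length and in 12 of the 29 windows found for the listed genes (41.4%). Among the 9 genes that fell at PT 80 ppm, 6 had windows, 7 in all, and 4 of these windows held a match (57.1%). The matches were in Ptprc, Cd5l, Cd68 and Ctss. The other window of Ptprc and those of Clec4f and S100a4 held none. A match is a run of letters and was not tested as a binding site.

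Among the resident macrophage genes, Clec4f, the C-type lectin particular to mouse Kupffer cells (ENSMUSG00000014542), lies on chromosome 6 (GRCm39 83621524 to 83633169). Its level was 3.05, 6.74 and 12.8 CPM (lowest, median and highest mouse) in the controls, 4.65, 8.22 and 10.9 CPM at PT 20 ppm, 4.23, 6.76 and 9.04 CPM at PT 40 ppm and 2.02, 5.28 and 7.02 CPM at PT 80 ppm. At PT 80 ppm replicate 1 and replicate 3 (2.99 CPM) lay below every control mouse, and the other 5 mice lay within the control range, 1 of them above its median. Clec4f fell at PT 80 ppm by a log2 fold change of -0.80 ± 0.24 (SE, edgeR adjusted p = 0.0121), and without replicate 1 the value was -0.67 ± 0.24 (adjusted p = 0.0511).

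Cd5l, a scavenger receptor family protein that macrophages secrete (ENSMUSG00000015854, chromosome 3, GRCm39 87265182 to 87278380), gave 57.5, 76.1 and 121 CPM in the control mice. It gave 48.7, 73.1 and 146 CPM at PT 20 ppm, 47.3, 73.6 and 92.9 CPM at PT 40 ppm and 6.71, 60.7 and 73.6 CPM at PT 80 ppm. Replicate 1 was the mouse at 6.71 CPM and replicate 2 the next at 37 CPM, and both of them and replicate 3 (51.9 CPM) lay below every control mouse. The other 4 mice lay within the control range. The log2 fold change was -0.87 ± 0.24 (edgeR adjusted p = 0.00721) and, without replicate 1, -0.66 ± 0.21 (adjusted p = 0.0259).

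Cd68, a lysosomal glycoprotein of macrophages (ENSMUSG00000018774, chromosome 11, GRCm39 69555037 to 69557067), gave 9.72, 14.5 and 21.8 CPM in the control mice, 12.5, 18 and 30.6 CPM at PT 20 ppm, 9.48, 16.8 and 18.7 CPM at PT 40 ppm and 5.15, 12.9 and 14.9 CPM at PT 80 ppm. At PT 80 ppm 5 mice lay within the control range, and replicate 1 and replicate 4 (9.58 CPM) lay below it. Its log2 fold change was -0.70 ± 0.21 (edgeR adjusted p = 0.0148), and -0.53 ± 0.20 without replicate 1 (adjusted p = 0.0788). Csf1r, the receptor for the macrophage growth factor CSF1, gave 7.91, 14.9 and 18.8 CPM in the control mice and 3.95, 10.8 and 12.9 CPM at PT 80 ppm. Both block 1 mice, at 3.95 and 6.33 CPM, were below the control range. Csf1r fell by a log2 fold change of -0.63 ± 0.21 (edgeR adjusted p = 0.0288), a value of -0.50 ± 0.21 without replicate 1 (adjusted p = 0.121).

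The other 6 resident macrophage genes did not pass the test at PT 80 ppm, though all their log2 fold changes were negative. For the subunits of complement C1q, which Kupffer cells make in the liver, the values were -0.48 ± 0.24 for C1qa, -0.53 ± 0.21 for C1qb and -0.54 ± 0.20 for C1qc (edgeR adjusted p = 0.152, 0.0596 and 0.0529), and -0.46, -0.41 and -0.41 without replicate 1. C1qb ranged from 35.9 to 123 CPM at PT 80 ppm and from 56 to 144 CPM in the control mice. Adgre1, which encodes the macrophage antigen F4/80, gave -0.63 ± 0.26, Vsig4 -0.65 ± 0.34, and Cd163, the haptoglobin and haemoglobin scavenger receptor, -0.17 ± 0.38. Vsig4 and Cd163 were measured at median counts of 13 and 10, and their 95% intervals at PT 80 ppm (-1.32 to 0.02 and -0.91 to 0.57) were wide. Without replicate 1 the values were -0.48 for Adgre1, -0.51 for Vsig4 and -0.31 for Cd163.

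**Figure D2:**
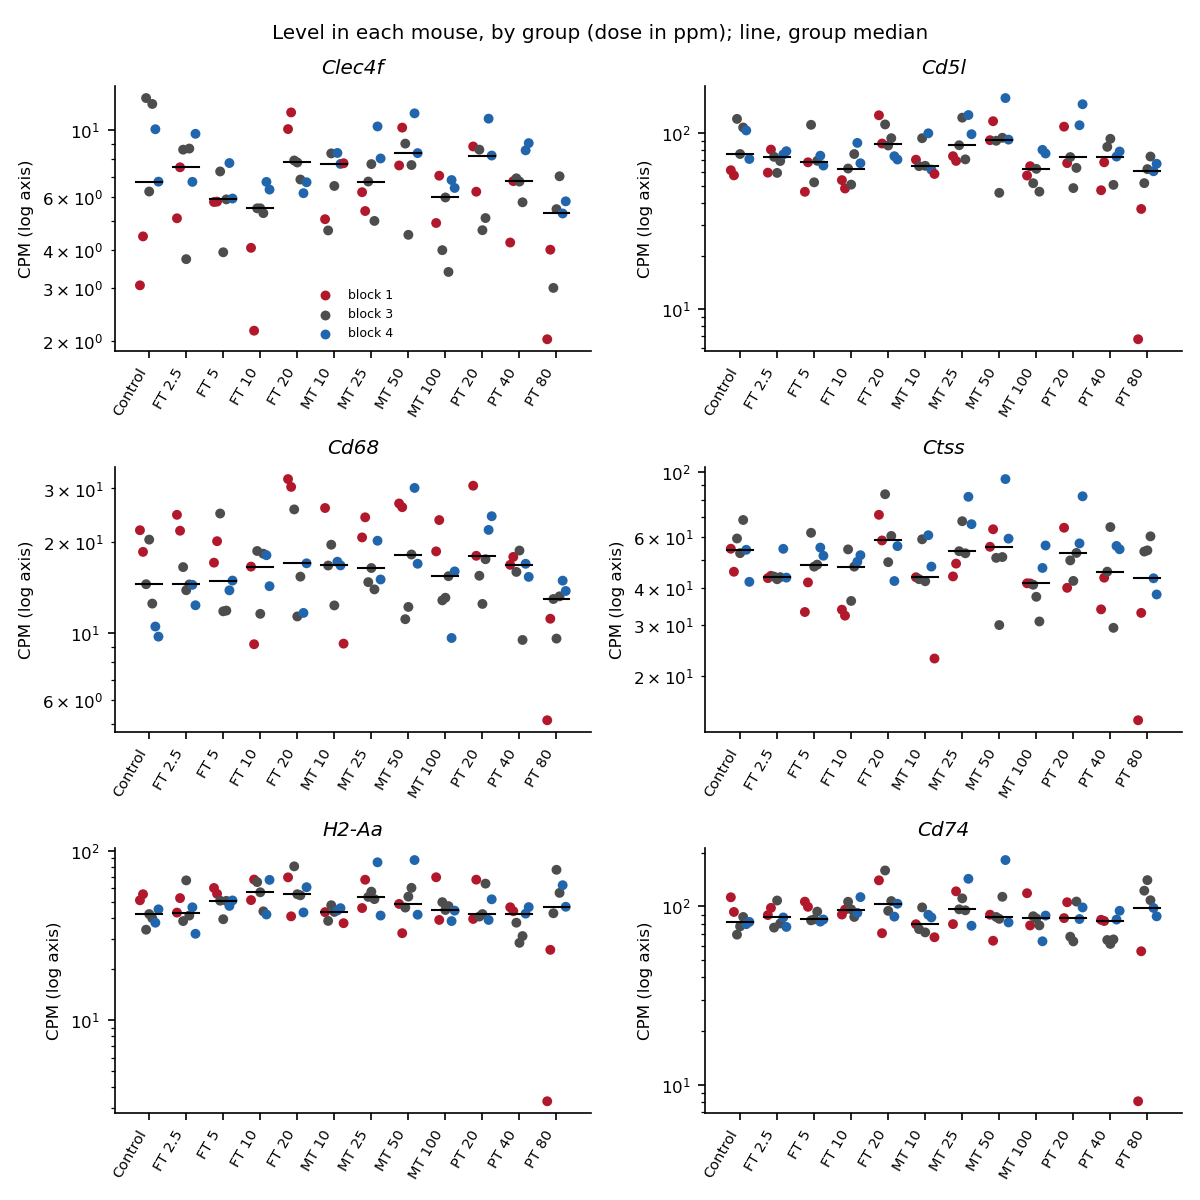
CPM on a log axis of Clec4f, Cd5l, Cd68, Ctss, H2-Aa and Cd74 in each of the 84 mice, by group (dose in ppm), with points coloured by experimental block and a line at each group median. PT 80 ppm holds the lowest mouse of all 84 in each of the 6 panels (6.71 CPM for Cd5l, 3.31 CPM for H2-Aa), and 4 or 5 of the 7 mice of that group lie at or above the lowest control mouse.

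Of the myeloid and pan-leukocyte genes, Ctss, the lysosomal protease cathepsin S that trims the invariant chain (ENSMUSG00000038642, chromosome 3, GRCm39 95433963 to 95463717), gave 42, 54.1 and 68.4 CPM in the control mice and 14.2, 43.2 and 60.1 CPM at PT 80 ppm. Its log2 fold change was -0.61 ± 0.19 (edgeR adjusted p = 0.0152), with -0.46 ± 0.18 without replicate 1 (adjusted p = 0.0797). Tyrobp, the adaptor DAP12 of activating receptors, gave 35, 43.2 and 71.4 CPM in the control mice and 15, 34 and 47.5 CPM at PT 80 ppm. It fell by a log2 fold change of -0.61 ± 0.19 (edgeR adjusted p = 0.0153), which became -0.47 ± 0.18 without replicate 1 (adjusted p = 0.0795). For both genes replicates 1 and 2 were the lowest mice of the group. At PT 80 ppm 3 of 7 mice were below every control mouse for Ctss and 5 of 7 for Tyrobp, and the others overlapped the controls.

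Ptprc, the leukocyte common antigen CD45, gave 20.3, 23.7 and 38.4 CPM in the control mice and 7.08, 20.7 and 33.4 CPM at PT 80 ppm. The group spanned both sides of the control median, with replicate 1 lowest and 3 of 7 mice below every control mouse, and the log2 fold change was -0.54 ± 0.19 (edgeR adjusted p = 0.0375; without replicate 1 -0.40 ± 0.18, adjusted p = 0.162). The other 6 genes of this set did not pass. Cybb, the membrane subunit of the phagocyte NADPH oxidase, gave -0.51 ± 0.20 (adjusted p = 0.0607) and the macrophage lysozyme Lyz2 -0.44 ± 0.17 (adjusted p = 0.0555). The leukocyte actin regulators Lcp1 and Coro1a gave -0.20 ± 0.16 and -0.32 ± 0.20, the lysosomal protein Laptm5 -0.41 ± 0.31, and the integrin chain CD11b encoded by Itgam 0.08 ± 0.26. Without replicate 1 the values were -0.35 for Cybb, -0.30 for Lyz2, -0.22 for each of Lcp1, Coro1a and Laptm5, and 0.10 for Itgam.

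The 3 MHC class II genes spread widely between mice at PT 80 ppm and were not called. Cd74 gave 69.4, 81.8 and 112 CPM in the control mice and 8.09, 97.9 and 140 CPM at PT 80 ppm. H2-Aa and H2-Ab1, the alpha and beta chains of I-A, gave 34.1, 42.2 and 55.3 CPM and 12.1, 14.2 and 22.7 CPM in the control mice, against 3.31, 46.6 and 77.1 CPM and 1.84, 18.3 and 25.0 CPM at PT 80 ppm. Replicates 1 and 2 were below every control mouse for all 3 genes, and the medians of the group were above the control medians. The log2 fold changes were -0.17 ± 0.22 for Cd74, -0.17 ± 0.24 for H2-Aa and -0.09 ± 0.23 for H2-Ab1 (edgeR adjusted p = 0.646, 0.695 and 0.836), and without replicate 1 they turned to 0.05 ± 0.16, 0.07 ± 0.18 and 0.14 ± 0.18 (adjusted p = 0.882, 0.869 and 0.704). The 95% intervals with all mice ran from -0.61 to 0.26 for Cd74, from -0.63 to 0.30 for H2-Aa and from -0.54 to 0.36 for H2-Ab1. H2-Eb1, the fourth gene of this set, had a median count of 1 and overlaps H2-Aa on the opposite strand in the GRCm39 annotation. Whether the counting used the strand is not given in the sources used here.

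Of the infiltrating cell genes, Cd52, a small surface glycoprotein of lymphocytes and monocytes, gave 0.682, 1.25 and 2.18 CPM in the control mice and 0, 1.08 and 1.43 CPM at PT 80 ppm. S100a4, a calcium-binding protein of motile leukocytes and fibroblasts, gave 0.938, 1.72 and 3.54 CPM in the control mice and 0, 1.20 and 1.76 CPM at PT 80 ppm. Replicate 1 was the mouse at 0 for both genes. For each of them 2 of 7 mice at PT 80 ppm were below every control mouse, and the others overlapped the controls. Cd52 fell by a log2 fold change of -0.95 ± 0.31 (edgeR adjusted p = 0.0250) and S100a4 by -0.99 ± 0.37 (adjusted p = 0.0477). Without replicate 1 the values were -0.70 ± 0.29 (adjusted p = 0.101) and -0.77 ± 0.35 (adjusted p = 0.151). The neutrophil and monocyte alarmin S100a8 gave -1.02 ± 0.50 (adjusted p = 0.151), Nkg7, a granule protein of cytotoxic cells, -0.45 ± 0.33, Cd79b of the B cell receptor -0.36 ± 0.38 and S100a6 0.21 ± 0.27. Without replicate 1 these were -1.08 for S100a8, -0.24 for Nkg7, -0.19 for Cd79b and 0.13 for S100a6.

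**Figure D3:**
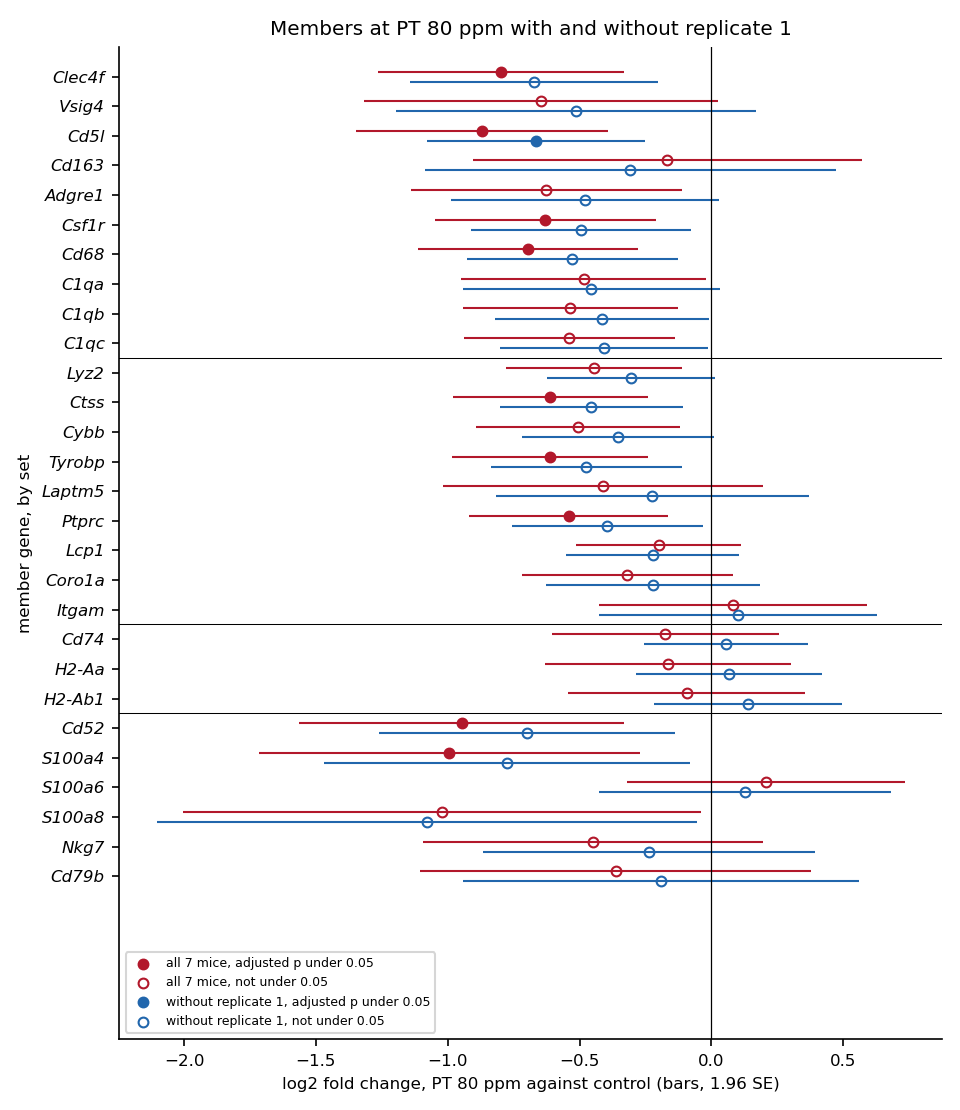
Log2 fold change at PT 80 ppm against control for each of the 28 genes (rows, in their 4 sets), with all 7 PT 80 ppm mice (red) and without replicate 1 (blue); bars are 95% intervals and filled points have an adjusted p under 0.05. With all mice 9 points are filled, without replicate 1 only Cd5l is, and Cd74, H2-Aa and H2-Ab1 pass from negative to positive values.

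The dose trend over PT was the change in log2 level per doubling of dose from 20 to 80 ppm. It compared the groups of the 21 dosed PT mice within the model of all mice. No control mouse and no mouse isolated by EPA was in the groups compared. The block and isolator terms, the SE and the adjusted p drew on all mice. The trend was called for 14 of the 28 genes, all with falling levels, beside 21.9% of all genes (10.4% lower). Slopes were negative for all 28 genes with a median of -0.29, against 0.00 over all genes. The 14 comprised 7 resident macrophage genes (Clec4f, Cd5l, Cd68, Csf1r, Adgre1, C1qb and C1qc), 4 myeloid and pan-leukocyte genes (Ctss, Cybb, Tyrobp and Lyz2), 3 infiltrating cell genes (Cd52, S100a4 and Nkg7) and no antigen presentation gene. The smallest adjusted p were those of Cd68 (-0.44 ± 0.10, edgeR adjusted p = 0.00100) and Cd5l (-0.46 ± 0.12, adjusted p = 0.00258), followed by Cybb (-0.34 ± 0.09, adjusted p = 0.00643) and Clec4f (-0.40 ± 0.11, adjusted p = 0.00702). Tyrobp (-0.32 ± 0.09), C1qb (-0.35 ± 0.10), Lyz2 (-0.28 ± 0.08), Nkg7 (-0.49 ± 0.15), Cd52 (-0.49 ± 0.15), S100a4 (-0.55 ± 0.18), Ctss (-0.26 ± 0.09), Adgre1 (-0.36 ± 0.13), Csf1r (-0.29 ± 0.10) and C1qc (-0.26 ± 0.10) made up the rest, with edgeR adjusted p from 0.00722 to 0.0421. Without replicate 1 at PT 80 ppm the trend was called for 6 genes beside 14.8% of all genes (6.93% lower), namely Cd68 (-0.36, adjusted p = 0.00755), Cd5l (-0.36, adjusted p = 0.0103), Clec4f (-0.34, adjusted p = 0.0347), Cybb (-0.26, adjusted p = 0.0374), C1qb (-0.29, adjusted p = 0.0380) and Tyrobp (-0.25, adjusted p = 0.0472).

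At the lower PT doses none of the 28 genes was called by edgeR, with 0.00960% of all genes called at PT 20 ppm and 0% at PT 40 ppm. DESeq2 and limma called none either. At an unadjusted p under 0.05 there was no gene at PT 20 ppm (5.91% of all genes) and 1 at PT 40 ppm (8.51%), which was Vsig4 (-0.70 ± 0.34). The median log2 fold change of the 28 genes was 0.07 at PT 20 ppm and -0.28 at PT 40 ppm, where 27 of 28 values were negative. Nkg7 was the one gene whose mice at a PT dose did not overlap the control mice. It gave 1.63, 1.88 and 2.32 CPM at PT 20 ppm and 0.938, 1.25 and 1.63 CPM in the control mice, with the lowest PT 20 ppm mouse just above the highest control mouse, whereas it gave 0.423, 1.21 and 1.67 CPM at PT 40 ppm and 0.184, 0.924 and 2.02 CPM at PT 80 ppm. The PT 20 ppm log2 fold change was 0.54 ± 0.31 (edgeR adjusted p = 0.853), and 0.0864% of all genes did not overlap in that comparison. The comparisons with control share the same 7 control mice and are not independent of each other.

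Within the blocks the difference between PT 80 ppm and control was taken on the mean log2(CPM + 1) without correction for the isolator. Its median over the 28 genes was -0.68 in block 1 (23 of 28 genes lower), -0.19 in block 3 (21 of 28) and -0.31 in block 4 (19 of 28), with 2, 3 and 2 mice a group. For the resident macrophage genes it was -0.56 (7 of 10 lower), -0.37 (10 of 10) and -0.48 (9 of 10). Cd5l gave -1.82, -0.67 and -0.43 and Clec4f -0.27, -0.89 and -0.50. Cd68 was lower in blocks 1 and 3 (-1.29 and -0.36) and higher in block 4 (0.46). Blocks 3 and 4 each held 1 control mouse isolated by EPA. The MHC class II genes had a median of -2.18 in block 1, where all 3 were lower, and of 0.66 and 0.39 in blocks 3 and 4, where all 3 were higher. With both block 1 mice at PT 80 ppm left out, edgeR called 0 of 28 genes at PT 80 ppm beside 8.50% of all genes (5 at an unadjusted p under 0.05), and 2 in the PT trend, Cd5l (-0.32, adjusted p = 0.0400) and Cd68 (-0.32, adjusted p = 0.0327), beside 11.3%. Over blocks 3 and 4 alone it called Clec4f at PT 80 ppm (-0.86, adjusted p = 0.0190) beside 7.11% of all genes, and none in the PT trend (14 at an unadjusted p under 0.05) beside 10.6%. The percentages are shares at an adjusted p under 0.05. Shares of all genes at an unadjusted p are not given here for these settings, so the counts of 5 and 14 have no background beside them. Both of these settings were chosen after the levels had been seen.

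**Figure D4:**
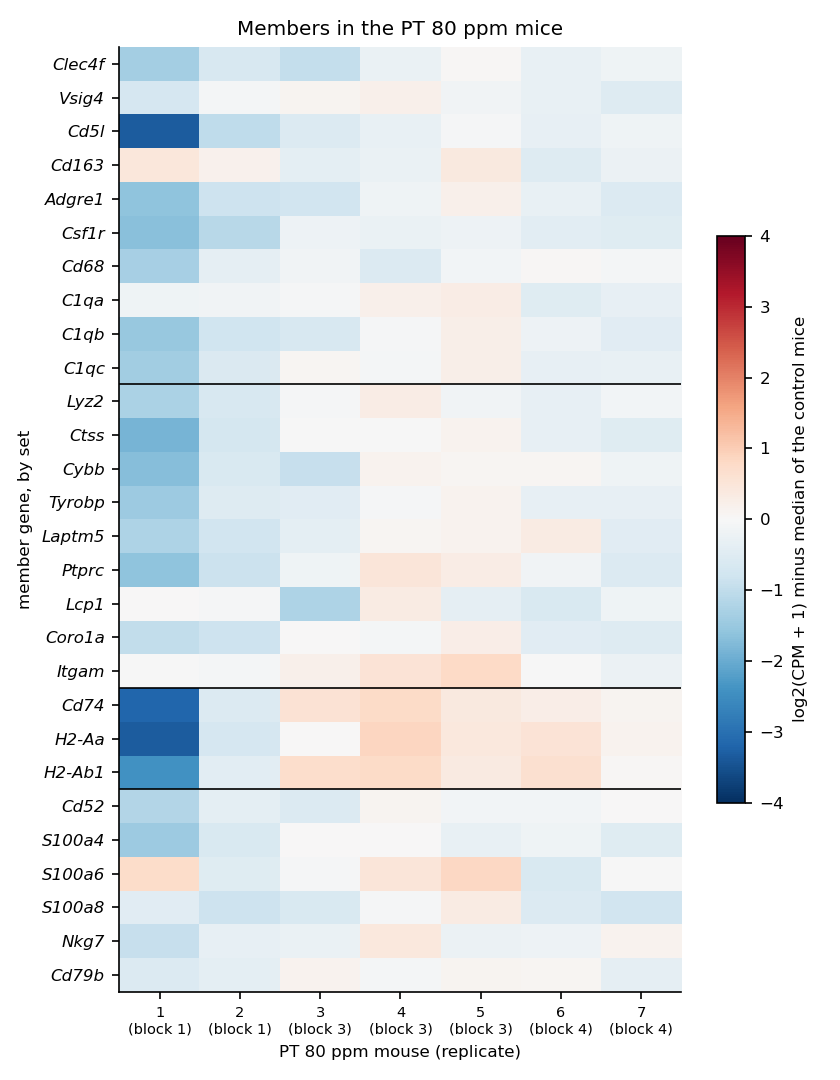
Level of each of the 28 genes (rows, in their 4 sets) in each of the 7 mice at PT 80 ppm (columns, with their block), as log2(CPM + 1) minus the median of the control mice, blue for lower and red for higher. Replicate 1 is blue for most genes and darkest for Cd5l, Cd74, H2-Aa and H2-Ab1, while Cd74, H2-Aa and H2-Ab1 are red or near white in the mice of blocks 3 and 4.

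At every dose of FT and MT edgeR called none of the 28 genes. Of all genes, 0.00960%, 0%, 1.57% and 0% were called at FT 2.5, 5, 10 and 20 ppm, and 0%, 0%, 0.00960% and 0.0768% at MT 10, 25, 50 and 100 ppm. limma called none of the 28 genes at these doses either, and DESeq2 called S100a8 at FT 10 ppm (-1.72, adjusted p = 0.0402) beside 2.85% of all genes. At an unadjusted p under 0.05 there were 5, 2, 6 and 0 of the 28 genes over the FT doses (10.7%, 7.59%, 17.7% and 3.98% of all genes) and 1, 0, 0 and 6 over the MT doses (9.97%, 5.79%, 3.99% and 13.7%). The trends over the dosed FT mice and over the dosed MT mice gave 0 called genes each, beside 0% and 0.0288% of all genes, with 4 and 0 of the 28 genes at an unadjusted p under 0.05 (7.22% and 5.23% of all genes).

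S100a8 had the lowest log2 fold change of the 28 genes at FT 2.5, FT 10 and MT 100 ppm. It gave 0.938, 2.03 and 8.40 CPM in the control mice, 0.248, 0.829 and 1.90 CPM at FT 2.5 ppm, 0.386, 0.591 and 1.33 CPM at FT 10 ppm and 0.522, 0.831 and 2.43 CPM at MT 100 ppm. All of these groups overlapped the control mice, of which 1 was at 8.40 CPM. The log2 fold changes were -1.37 ± 0.52, -1.73 ± 0.54 and -1.37 ± 0.48 (edgeR adjusted p = 0.305, 0.0746 and 0.179). At FT 20 ppm the 0.764, 2.18 and 4.25 CPM of S100a8 lay around the control median.

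Of the resident macrophage genes, Clec4f, Vsig4 and C1qa had an unadjusted p under 0.05 at both FT 10 ppm and MT 100 ppm. At FT 10 ppm they gave -0.61 ± 0.24, -0.86 ± 0.35 and -0.65 ± 0.24 (edgeR adjusted p = 0.155, 0.175 and 0.129), and at MT 100 ppm -0.50 ± 0.23, -0.85 ± 0.33 and -0.54 ± 0.23 (adjusted p = 0.304, 0.232 and 0.277). The same control mice enter both values. C1qa gave 10.7, 14.2 and 25.1 CPM in the control mice, 4.24, 11.1 and 19.8 CPM at FT 10 ppm and 6.67, 12.2 and 19.3 CPM at MT 100 ppm, so that the groups overlapped. The median log2 fold change of the 28 genes was -0.25 at both FT 10 ppm and MT 100 ppm. At the highest FT dose of 20 ppm it was 0.12, and 6 of 28 values were negative. The MHC class II genes lay between 0.07 and 0.28 at FT 10 ppm and between 0.31 and 0.38 at FT 20 ppm, with no call.

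Over all 12 groups together, the joint test of the 11 dosed groups was called for 12 of the 28 genes, beside 20.3% of all genes. These were 6 resident macrophage genes (Clec4f, Cd5l, Cd68, Csf1r, C1qa and C1qc), 4 myeloid and pan-leukocyte genes (Ctss, Cybb, Tyrobp and Ptprc) and S100a4 and S100a8. Cd5l had the smallest adjusted p (edgeR, 0.00971). The order of the group medians differed between genes. PT 80 ppm had the lowest median of the 12 groups for Clec4f (5.28 CPM), Cd5l (60.7 CPM), Cd68 (12.9 CPM), C1qb (76.2 CPM), Cybb (28 CPM) and Tyrobp (34 CPM), while FT 10 ppm had the lowest for Csf1r (9.41 CPM), C1qa (11.1 CPM) and S100a8 (0.591 CPM). MT 50 ppm had the highest median for Clec4f (8.38 CPM), Cd5l (91.9 CPM), Cd68 (18.2 CPM) and Csf1r (15.7 CPM), and its replicate 6 had the highest level of all 84 mice for 9 of the 28 genes.

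FT and PT are both phosphorothioates, FT with methyl and PT with ethyl esters, and MT is a dimethyl phosphorodithioate. Doses in ppm matched for FT and PT at 20 ppm and for FT and MT at 10 ppm, and these 2 pairs were compared directly in the same model, a choice made after the data had been seen. At 20 ppm none of the 28 genes differed between FT and PT by edgeR or DESeq2 (0% of all genes called). At an unadjusted p under 0.05 there were 0 of 28 by either, beside 354 (edgeR) and 355 (DESeq2) of all 10415 genes. The FT minus PT differences had a median of 0.07, and for Clec4f the difference was 0.08 ± 0.22 (95% interval -0.36 to 0.52) and for Cd5l 0.08 ± 0.24 (95% interval -0.38 to 0.54). At 10 ppm none differed between FT and MT by edgeR (0% of all genes called). At an unadjusted p under 0.05 there was 1 of 28 genes, beside 797 of all 10415 genes. That gene was S100a8 (-1.22 ± 0.53, 95% interval -2.25 to -0.19, edgeR adjusted p = 0.608). These intervals do not show the responses at these doses to be alike. PT 80 ppm, where 9 of the 28 genes were called, had no matching dose of FT or MT.

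The markers were also read against block and isolator. The joint block test was called for 12 of the 28 genes, beside 39.9% of all genes, with Ptprc, Adgre1 and Ctss at the smallest adjusted p (edgeR, 0.000381, 0.000389 and 0.000452). The median over mice of Cd5l was 66.2 CPM in block 1 (24 mice), 72 CPM in block 3 (36 mice) and 77.6 CPM in block 4 (24 mice), and that of Clec4f 5.78, 6.38 and 7.74 CPM. Cd68 went the other way, with 20.4, 14.5 and 15.2 CPM. Between isolators 4 of the 28 genes were called, beside 38.7% of all genes, all lower in the 7 mice of EPA. They were Cd68 (-0.80 ± 0.18, edgeR adjusted p = 0.000217), Ctss (-0.51 ± 0.16, adjusted p = 0.00722), Cd52 (-0.77 ± 0.26, adjusted p = 0.0137) and Cd74 (-0.47 ± 0.18, adjusted p = 0.0313). Among the mice isolated by EA alone, which left 5 control mice, edgeR called 1 of the 28 genes at PT 80 ppm, Cd5l (-0.72 ± 0.25, adjusted p = 0.0428), beside 14.7% of all genes.

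The markers were also compared between mice of the same group, on residual log2(CPM + 1) after group, block and isolator over all 84 mice. Permuting mice within blocks gave p-values with 1e-05 as the smallest they can give, adjusted over 8 pairs. Residuals of the MHC class II genes H2-Ab1 and Cd74 had a Pearson r of 0.94 and a Spearman rho of 0.87 (permutation adjusted p = 1e-05 and 2e-05), with r 0.88 without the 2 farthest mice and 0.89 without replicate 1 at PT 80 ppm. H2-Aa and H2-Ab1 gave r 0.90 and rho 0.81 (permutation adjusted p = 1e-05 and 2e-05), with 0.81 and 0.83 on the same exclusions. Within blocks 1, 3 and 4 H2-Ab1 and Cd74 gave r 0.97, 0.92 and 0.84.

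For the C1q subunits, C1qb and C1qc gave r 0.85 and rho 0.83 (0.82 without the 2 farthest mice) and C1qa and C1qb r 0.73 and rho 0.77 (0.77), and each permutation adjusted p was 1e-05 for r and 2e-05 for rho. C1qb and C1qc gave 0.82, 0.89 and 0.81 within blocks 1, 3 and 4, and C1qa and C1qb 0.52, 0.91 and 0.76. S100a8 and S100a9, the partners of calprotectin, gave r 0.86 and rho 0.86 (0.85 without the 2 farthest mice), with the same p-values and 0.78, 0.84 and 0.95 within the blocks. The Kupffer cell markers Clec4f and Vsig4 gave r 0.55 and rho 0.46 (0.50 without the 2 farthest mice, permutation adjusted p = 1e-05 for r and 5.33e-05 for rho) and 0.57, 0.50 and 0.72 within the blocks.

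Clec4f and Cd74 gave r 0.18 and rho 0.10 (permutation adjusted p = 0.167 and 0.415). Without the 2 mice farthest on Clec4f r was 0.23 (permutation adjusted p = 0.0485), and without replicate 1 at PT 80 ppm it was 0.0252. Cd3e, of the T cell receptor complex, and Nkg7 gave r 0.06 and rho 0.03 (permutation adjusted p = 0.586 and 0.762), at levels near the smallest measured. All genes of a mouse share 1 library and 1 piece of liver.

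**Figure D5:**
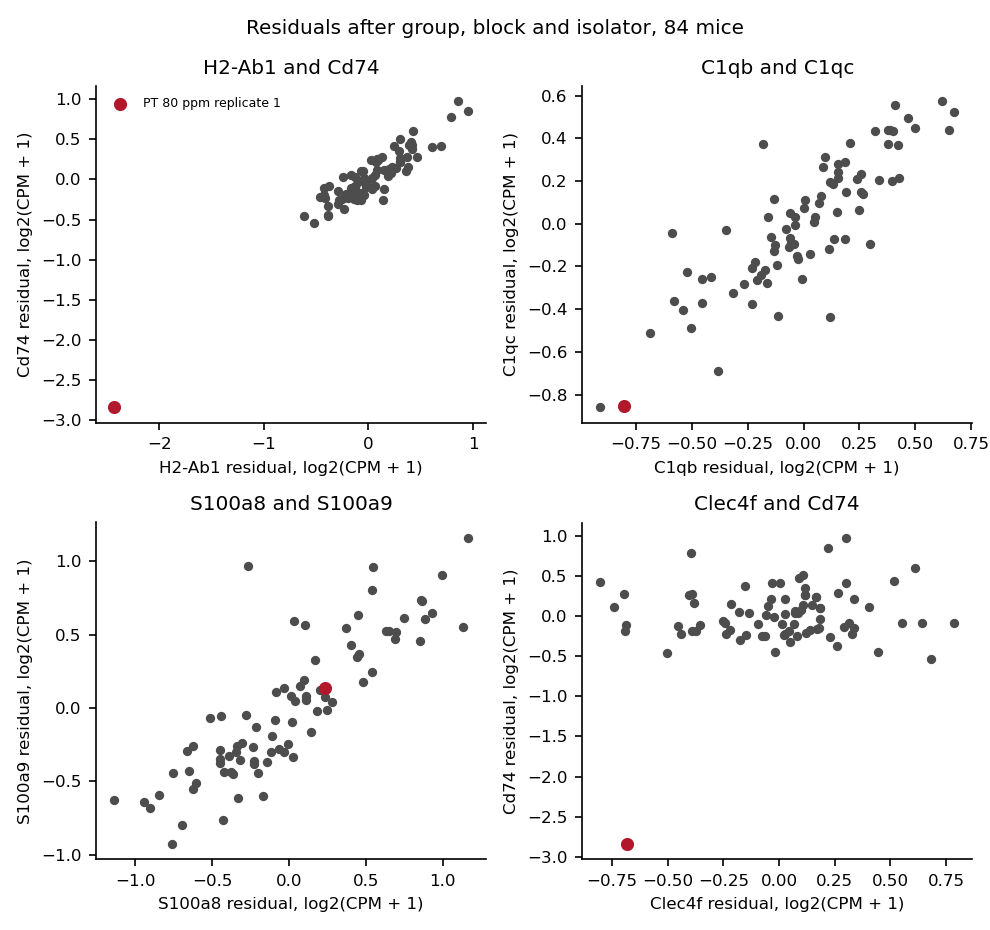
Residual log2(CPM + 1) of H2-Ab1 and Cd74, C1qb and C1qc, S100a8 and S100a9, and Clec4f and Cd74 in the 84 mice after group, block and isolator, with replicate 1 at PT 80 ppm in red. The points of the first 3 pairs run along a line (Pearson r 0.94, 0.85 and 0.86), those of Clec4f and Cd74 do not (0.18), and the red point lies far below the rest for Cd74.

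Other genes of the same cells, taken from longer lists, were counted at PT 80 ppm. Over all genes 18.6% were called there (8.89% lower and 9.75% higher), and 12.3% without replicate 1 (5.84% lower). Of 18 other macrophage genes 6 fell and 1 rose, with Mpeg1, the pore-forming perforin-2 (-1.09 ± 0.31), Aif1 (-0.90 ± 0.27) and Sirpa, the receptor for CD47 (-0.89 ± 0.24) having the largest changes (edgeR adjusted p = 0.00759, 0.0141 and 0.00490), and the iron exporter Slc40a1 rising by 0.35 ± 0.11 (adjusted p = 0.0235). Mpeg1 gave 43.7, 101.3 and 286 CPM in the control mice and 24.9, 47.9 and 106.3 CPM at PT 80 ppm, where the groups overlapped. Without replicate 1, 2 were called, Mpeg1 and Sirpa (-1.04 and -0.79, adjusted p = 0.0227 for both), and Aif1 was at -0.68 (adjusted p = 0.0633). Of 10 other antigen presentation genes 4 fell, among them the immunoproteasome subunit Psmb9 (-1.02 ± 0.16), the lysosomal thiol reductase Ifi30 (-0.70 ± 0.22) and B2m of MHC class I (-0.35 ± 0.10), and 3 did without replicate 1 (Psmb9 -0.86 and Ifi30 -0.69 among them, and B2m at -0.23 not). Psmb9 gave 11.8, 14.6 and 20.0 CPM in the control mice and 2.94, 8.09 and 14.8 CPM at PT 80 ppm.

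Of 8 lymphocyte and NK cell genes 3 fell, beside 8.89% of all genes. Ighm, the heavy chain of immunoglobulin M, gave 3.11, 8.19 and 23.1 CPM in the control mice and 0.692, 1.56 and 3.05 CPM at PT 80 ppm, so that all 7 dosed mice were below all control mice. In that comparison 1.44% of all genes did not overlap. Its log2 fold change was -2.41 ± 0.40, and -2.48 ± 0.42 without replicate 1 (edgeR adjusted p = 6.82e-06 and 1.52e-05). Cd4 (-1.25 ± 0.33, without replicate 1 -1.06 ± 0.32) and the lymphotoxin chain Ltb (-0.70 ± 0.26) were the other 2, and Ltb was not called without replicate 1. None of the 2 neutrophil genes was called by edgeR (0 at an unadjusted p under 0.05).

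Genes of the other liver cell types were counted in the same comparison, beside 18.6% of all genes called (8.89% lower and 9.75% higher). Of 13 sinusoidal endothelial genes 1 rose and none fell, and their sum was 450 to 575 CPM in the control mice and 481 to 675 CPM at PT 80 ppm. Of 10 stellate cell genes 1 fell and 3 rose. Of 7 cholangiocyte genes listed only 1, Spp1, could be tested, and it fell (-1.11, and -0.92 without replicate 1). A single gene does not stand for that cell type. Of 10 hepatocyte genes 5 rose, with Tat (1.57), Cyp2e1 (0.98) and Cps1 (0.88) at the largest values. Tat was at 86.8 CPM in replicate 1 and at a median of 4.35 CPM in the other mice of the group, and without replicate 1 it was at 0.62 and not called (edgeR adjusted p = 0.303), with Cyp2e1 at 1.03 and Cps1 at 0.74. The sum of the 10 genes was 30378 to 56108 CPM in the control mice and 44835 to 71418 CPM at PT 80 ppm. All 4 red cell genes fell, with Hbb-bs at -1.53, Alas2 at -1.38 and Hba-a2, a near copy of Hba-a1 whose reads could be split, at -1.25, from a sum of 36.1 to 155 CPM in the control mice to 15.4 to 56.1 CPM at PT 80 ppm. Without replicate 1 the red cell genes were at -1.37, -1.17 and -1.12. The calls then numbered 2, 2, 1, 3 and 4 in these lists, beside 12.3% of all genes. The part that a larger hepatocyte share of the RNA or a smaller blood content had in the levels of the macrophage and leukocyte genes was not tested.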

How the data were processed

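The liver samples were from 84 mice in 12 groups of 7, each sample being a separate mouse. Per the study's methods, mice shared cages, and whole cages were assigned to the diets at random. The labels used here name no cage, so the tests treated mice as independent. Effects of a shared cage cannot be told apart from those of dose. Per the labels and the study's methods, RNA was isolated from frozen liver by 2 isolators, TempO-Seq libraries were sequenced, and reads were trimmed, aligned with STAR to mm39 and quantified to Ensembl genes in Partek. The deposited estimated counts per gene are not normalised (18.7% of values are not whole) and were rounded before testing. The authors also deposited log2 values of CPM + 1 for 11064 genes adjusted for block and isolator by a general linear model, treated here as a score on a log2 scale and used only as an alternative. The adjustment had been fitted by the authors, so that a test on these values does not count the degrees of freedom it took.

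Counts were fitted with the quasi-likelihood test of edgeR 4.0.16 (R 4.3.3) with TMM scaling, 1 model of group, block and isolator over all 84 mice, and genes with a median count above 8 (10415 of 17695). A call is a Benjamini-Hochberg adjusted p under 0.05 over all genes tested, and 95% intervals are normal intervals from the SE. DESeq2 1.42.0, limma 3.58.1 on log2(CPM + 1), DESeq2 size factors, no filter on low counts and no block and isolator terms were tried as alternatives. So were EA mice alone, control and 1 agent alone and the deposited adjusted values. Each control mouse and each PT 80 ppm mouse was also left out in turn, and no mouse of the other groups was. Correlations used 100000 permutations. On simulated counts for the PT 80 ppm comparison over 10415 genes, edgeR recovered 100 of 100 genes changed by 2 on the log2 scale. It recovered 72 of 100 genes changed by 0.7, with 7 false calls. The simulated counts held no block effect, no isolator effect and no mouse set apart, so these rates need not hold for the measured counts.

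Totals were 6950381 to 15300589 counts a mouse, and there were no molecular identifiers, so that counts and the floor of 3 counts cover counting error only. No 2 mice had identical values, and the closest pair within a group had a chi-square of 7.93 per degree of freedom. Replicate numbers were given in accession order and pair no mice. Gene names and positions were those of the GENCODE annotation of GRCm39, which named 17660 of the 17695 identifiers. The 35 genes, the other lists and the alternatives were chosen with earlier results of these data known. The genes named were all 35, each with values where called, and at most 3 called genes of each other list by the size of the change at PT 80 ppm. Without the filter on low counts edgeR called none of the 7 genes with low medians at PT 80 ppm (lowest adjusted p = 0.237, S100a9).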

Additional observations from a re-analysis of the deposited data

Results flagged for a closer look

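In each of the 12 groups of 7 mice the highest and the lowest mouse were compared with their neighbour for each of the 28 genes on log2(CPM + 1), and a mouse was singled out where its gap to the nearest other mouse exceeded 0.568 of the range of the group (Dixon's 95% limit for 7 values). This met 30 of 336 combinations of gene and group (8.93%), where chance gives about 1 in 20 for a single combination. The combinations share mice, and several of the genes vary together between mice, so these shares do not test for an excess. Only combinations that passed this limit are listed here. PT 80 ppm replicate 1 was the lowest of its group by more than this limit for 8 genes, which were Cd5l (6.71 CPM, others 37 to 73.6 CPM), Cd68 (5.15 CPM, others 9.58 to 14.9 CPM), Ctss (14.2 CPM, others 32.9 to 60.1 CPM), Tyrobp (15 CPM, others 29.7 to 47.5 CPM), Cd74 (8.09 CPM, others 56 to 140 CPM), H2-Aa (3.31 CPM, others 26 to 77.1 CPM), H2-Ab1 (1.84 CPM, others 10.4 to 25.0 CPM) and S100a4 (0 CPM, others 0.801 to 1.76 CPM). 

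FT 2.5 ppm replicate 7 was the highest of its group for Csf1r (25.3 CPM, others 10.1 to 14.4 CPM), Tyrobp (118 CPM, others 34.2 to 47.4 CPM) and Lcp1 (125 CPM, others 43.4 to 54 CPM). FT 5 ppm replicate 3 was the highest of its group for Tyrobp (58.8 CPM, others 36.6 to 41.5 CPM) and S100a4 (7.05 CPM, others 1.60 to 2.80 CPM). FT 2.5 ppm replicate 7 was the lowest of its group for Cybb (20.3 CPM, others 27.8 to 33.7 CPM) and Cd52 (0.454 CPM, others 0.961 to 1.32 CPM). Control replicate 1 was the lowest of its group for Adgre1 (1.64 CPM, others 3.36 to 5.34 CPM) and Lcp1 (17.8 CPM, others 40.0 to 63.2 CPM). PT 40 ppm replicate 5 was the lowest of its group for Cd68 (9.48 CPM, others 15.3 to 18.7 CPM) and Nkg7 (0.423 CPM, others 1.08 to 1.67 CPM). Of single genes the highest of the group were FT 2.5 ppm replicate 2 for Itgam (2.12 CPM, others 1.02 to 1.42 CPM), FT 2.5 ppm replicate 6 for Ctss (54.5 CPM, others 42.9 to 44.1 CPM) and FT 20 ppm replicate 4 for S100a6 (10.7 CPM, others 1.91 to 4.08 CPM). Also highest were MT 100 ppm replicate 1 for H2-Aa (69.7 CPM, others 38.4 to 49.7 CPM) and PT 40 ppm replicate 3 for Laptm5 (3.58 CPM, others 1.67 to 2.27 CPM). Of single genes the lowest of the group were FT 10 ppm replicate 2 for Cd163 (0.231 CPM, others 0.589 to 0.916 CPM), FT 5 ppm replicate 4 for Lcp1 (29.1 CPM, others 42.1 to 47.9 CPM) and FT 5 ppm replicate 5 for Cd79b (0.0829 CPM, others 0.526 to 0.881 CPM). Also lowest were MT 10 ppm replicate 7 for Ctss (23 CPM, others 42.2 to 60.7 CPM), MT 25 ppm replicate 3 for Cd163 (0.263 CPM, others 0.709 to 1.06 CPM) and MT 50 ppm replicate 4 for C1qb (61.1 CPM, others 110 to 168 CPM). The Cd79b value lay below the 3 counts taken as the smallest measured (0.249 CPM in that mouse), and so did S100a4 in PT 80 ppm replicate 1 (0.276 CPM). Both Cd163 values lay at 3 counts.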

How the results depend on the processing

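The count of the 28 genes called at PT 80 ppm was 9 and lay between 7 and 13 with DESeq2 (13), DESeq2 size factors (9), limma (7), no filter on low counts (7) and the deposited adjusted values (12, of which 2 were higher). It was 1 in the EA mice alone (14.7% of all genes) and 0 in a model of control and PT mice alone (9.57%). Without the block and isolator terms it was 3. It was 0 without both block 1 mice at PT 80 ppm (8.50%) and 1 in blocks 3 and 4 alone (7.11%). Of all genes, 18.6% were called in the main model, 19.4% with DESeq2, 22.5% with limma and 49.5% on the adjusted values. Shares under DESeq2 size factors, no filter on low counts and no block and isolator terms are not given here, nor those of most leave-outs. Leaving out 1 PT 80 ppm mouse gave 1 to 13 calls, with 1 without replicate 1 (12.3% of all genes) and 5 without replicate 2 (15.7%). Leaving out 1 control mouse gave 4 to 12, with 4 without replicate 5 (17.4%). The PT trend was called for 14 genes (21.9% of all genes) and for 10 to 15 under the other models of all doses. With 1 PT 80 ppm mouse left out it was called for 6 to 16, with 6 without replicate 1 (14.8%). It was called for 2 without both block 1 mice at PT 80 ppm (11.3%) and for 0 in blocks 3 and 4 (10.6%). At FT 10 ppm the count rose from 0 to 1 with DESeq2 and to 1 without block and isolator terms, in both cases S100a8 (-1.72 and -2.06, adjusted p = 0.0402 and 0.0204). The joint test over the 12 groups was called for 12 genes (20.3% of all genes), and for 5 without block and isolator terms.

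The deposited adjusted values gave 14 calls in the PT trend as well (37.3% of all genes), and more calls in the other comparisons, with 10546 of 11064 genes called in the joint test. Of the 28 genes 5, 15, 19 and 12 were called at FT 2.5, 5, 10 and 20 ppm (34.5%, 39.7%, 55.2% and 31.2% of all genes), 9, 18, 15 and 17 at MT 10, 25, 50 and 100 ppm (31.6%, 42.2%, 39.6% and 41.3%), 16 and 15 at PT 20 and 40 ppm (43.4% and 46.4%), 2 and 8 in the FT and MT trends (7.79% and 26.5%), and 28 in the joint test (95.3%). The log2 fold change at PT 80 ppm turned positive on these values for Cd52 (0.45), Cd68 (0.15), Cd74 (0.21), Ctss (0.0133), H2-Aa (0.10), H2-Ab1 (0.27), Ptprc (0.0893) and S100a4 (0.57), and that of S100a8 at FT 10 ppm turned to 0.0831. Cd74, H2-Aa and H2-Ab1 also turned positive at PT 80 ppm in blocks 3 and 4 (0.28, 0.30 and 0.45), without both block 1 mice (0.18, 0.21 and 0.29) and without replicate 1 (0.0546, 0.0675 and 0.14), and H2-Ab1 without replicate 2 (0.0144). With 1 mouse left out in turn their ranges were -0.31 to 0.0546, -0.33 to 0.0675 and -0.21 to 0.14, lowest without PT 80 ppm replicate 4. The cause was not tested.

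No paired analysis was possible because replicate numbers were given in accession order and mark no shared litter or day. Block and isolator terms were not fitted on the adjusted values.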
